A study of Arabidopsis thaliana with 4 samples.

Results

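The chloroplast genes rps2, atpI, atpH, atpF and atpA lie next to each other on the minus strand and are read in that order. Their intervals were taken by name from the TAIR10.1 annotation of the Arabidopsis thaliana chloroplast, together with the spacers between them. They are 5 of 130 distinct gene intervals and run from 9938 to 15723, which is 5786 nt. All 5 passed the filter on low coverage, a mean of at least 10 reads per nucleotide over the 4 libraries, as did 112 gene intervals in all. A gene could pass it through dPPRrbcL alone, as rps2 did with 4.15 and 7.32 in WT.

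RNA was recovered by immunoprecipitation with an HA antibody from stroma, the soluble phase of the chloroplast, and sequenced (RIP-seq). One group is a line labelled transgenic dPPRrbcL and the other is wild-type Col-0 (WT), with 2 libraries each from plants aged 2 weeks. Both groups went through the same stroma extraction and the same HA immunoprecipitation, so WT gives the background of the procedure. The promoter of the transgene, its genetic background, and whether replicates came from separate plants are not given in the sources used here. The p-values therefore rest only on the spread between these libraries, in part pooled over the features tested together. The study asked whether dPPRrbcL associates with the rbcL mRNA and which other RNAs come along with it.

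The cluster codes for 4 subunits of the chloroplast ATP synthase and 1 ribosomal protein. The membrane part of the enzyme, CF0, carries protons through a ring of c subunits (atpH) beside the a subunit (atpI), and its peripheral stalk holds a b-type subunit (atpF). The catalytic part, CF1, contains the alpha subunit (atpA), and rps2 codes for protein S2 of the small ribosomal subunit. The genes are transcribed together and the long RNAs are cut between the reading frames. Proteins of the pentatricopeptide repeat (PPR) family bind plastid RNA, and some of them protect transcript ends between these genes: PPR10 of maize binds between atpI and atpH, and BFA2 of Arabidopsis between atpF and atpA. atpF holds a group II intron, which is removed by splicing.

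The places at which the results turn are shown as RNA-strand DNA from the RefSeq TAIR10.1 chloroplast sequence, read 5′ to 3′ on the minus strand. The first is the exon 1 to intron border of atpF (Pt:12624-12683), with the last 30 nt of exon 1 in capitals, where coverage in dPPRrbcL stepped down. The next is the intron to exon 2 border (Pt:11909-11968), with the first 30 nt of exon 2 in capitals, where coverage stepped up again. The last is the 100 nt window of exon 2 with the largest change in the cluster (Pt:11801-11900), with capitals on the longest run it shares with the 150 nt before rbcL.
atpF exon 1 to intron: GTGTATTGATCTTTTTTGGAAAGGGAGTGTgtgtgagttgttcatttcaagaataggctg
atpF intron to exon 2: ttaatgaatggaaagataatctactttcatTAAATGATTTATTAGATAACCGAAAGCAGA
atpF exon 2 window: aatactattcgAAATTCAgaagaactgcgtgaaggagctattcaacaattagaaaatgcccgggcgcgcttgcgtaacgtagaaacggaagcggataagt

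The deposited values are reads per nucleotide at each chloroplast position. rRNA genes took 98.8% and 98.4% of the coverage in WT replicates 1 and 2, and 90.3% and 91.4% in dPPRrbcL. The 5 genes took 0.0256% and 0.0398% in WT, and 0.451% and 0.399% in dPPRrbcL. Mean coverage ranged from 10373 to 12917 reads per nucleotide over the 4 libraries. In WT, 1.66% and 0.363% of the cluster's positions had no read, and in dPPRrbcL none lacked one. The part of the lower rRNA share in the results was not tested, so each change is given in 2 ways. A change scaled to the library total divides a gene's coverage by the library's mean coverage and adds 0.001 (0.1%) before log2 is taken. A change relative to the median gene is taken after median-ratio scaling, which sets the typical gene near 0. The files cover chloroplast positions only, so the purity of the extract was not checked with nuclear genes.

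All 5 genes rose in dPPRrbcL when scaled to the library total, as did 97.3% of the genes tested, so this count says nothing particular to the cluster. The median of the 5 log2 changes was 3.44, beside 2.97 over the 112 genes. Relative to the median gene, 3 of the 5 rose (atpI, atpH and atpF) and none fell, also at an unadjusted limma p under 0.05. Over all genes 31.2% rose and 33.0% fell by that measure. Of the 85 protein-coding intervals tested, as all 5 members are, 31 rose and 17 fell. rps2 and atpA, at the ends of the cluster, did not pass the test. This split depended on scaling and pseudocount. Scaling to the median gene is another measure, which subtracts each library's median log2 gene level. With it 2 genes rose and atpA fell. Without a pseudocount, a gene's log2 ratio is set against the median log2 ratio of 109 genes. By that measure rps2 stood furthest above the median, by 0.77. The values were 0.58 for atpF, 0.53 for atpH, 0.05 for atpI and -0.84 for atpA.

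**Figure D1:**
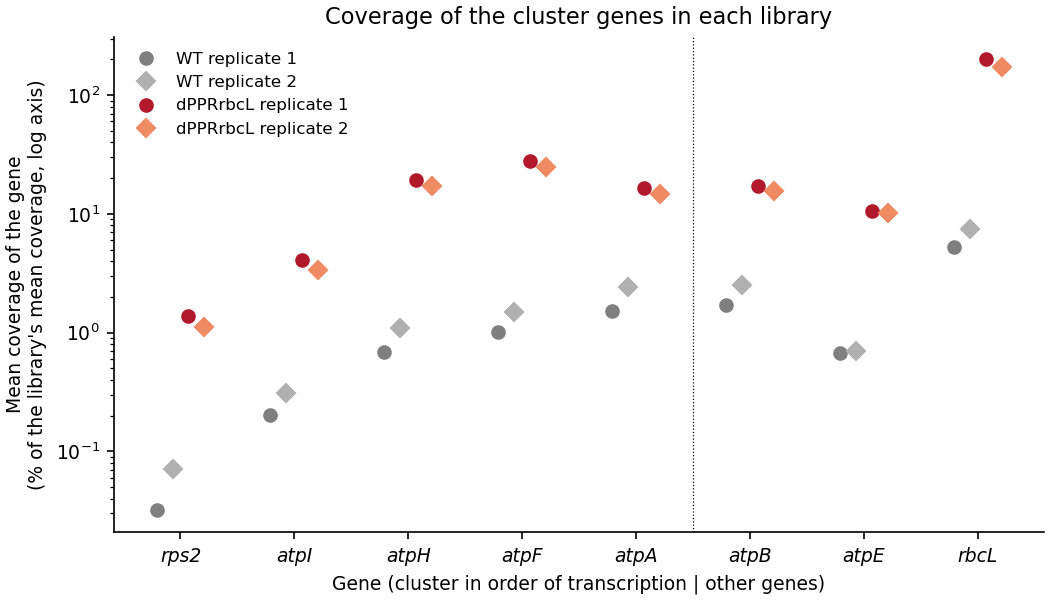
Mean coverage of each gene as a percent of the library's mean coverage (log axis), one point per library, for the cluster genes in order of transcription and, right of the dotted line, atpB, atpE and rbcL. Both dPPRrbcL points lie above both WT points for every gene shown, and rps2 is the lowest in both groups.

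rps2, at 15013 to 15723 (ArthCp011, 1 exon, 711 nt), is the first gene of the cluster and had the lowest level. Its coverage came to 4.15 and 7.32 reads per nucleotide for WT replicates 1 and 2, against 166 and 143 for dPPRrbcL. The groups did not overlap. Relative to the library mean the level was 0.0513% ± 0.0272 (SD, n = 2) in WT against 1.24% ± 0.18 (SD, n = 2) in dPPRrbcL. The log2 change scaled to the library total was 3.15 (SE 0.20, limma adjusted p = 2.59e-06). Because rps2 passed the filter only through dPPRrbcL, this p-value is a description. The pseudocount of 0.1% equals 10.4 to 12.9 reads per nucleotide, more than the WT coverage of rps2, and the ratio of group means without it was 24.2-fold. The change relative to the median gene was 0.21 (SE 0.10, limma adjusted p = 0.135). With a pseudocount of 1% it was -0.45 and with 0.01% it was 0.70, both past the threshold in opposite directions, so no direction is given for rps2.

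atpI, at 14021 to 14770 (ArthCp010, 1 exon, 750 nt), codes for the a subunit of CF0. Its coverage was 26.1 and 31.9 reads per nucleotide in WT, and 496 and 429 in dPPRrbcL, with no overlap. The level was 0.255% ± 0.075 (SD, n = 2) of the library mean for WT, against 3.72% ± 0.51 (SD, n = 2) for dPPRrbcL. The log2 change was 3.44 scaled to the library total (SE 0.21, limma adjusted p = 2.26e-06) and 0.49 relative to the median gene (SE 0.11, limma adjusted p = 0.00714). The second value was 0.43 without dPPRrbcL replicate 1 (limma adjusted p = 0.165) and 0.55 without replicate 2 (limma adjusted p = 0.0629), where 1 library stands for the group. It was 0.12 with a pseudocount of 0.01% (limma adjusted p = 0.403).

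atpH, at 13262 to 13507 (ArthCp009, 1 exon, 246 nt), codes for the c subunit that forms the proton-carrying ring. Its coverage was 89.4 and 114 reads per nucleotide in WT, and 2347 and 2208 in dPPRrbcL. Both dPPRrbcL libraries were far above both WT libraries. The level was 0.896% ± 0.289 (SD, n = 2) of the library mean for WT, against 18.3% ± 1.4 (SD, n = 2) for dPPRrbcL. The log2 change was 4.24 scaled to the library total (SE 0.23, limma adjusted p = 1.43e-06), rank 15 of 112. It was 1.29 relative to the median gene (SE 0.13, limma adjusted p = 0.000277).

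atpF, at 11529 to 12798 (ArthCp008, 1270 nt with its intron), codes for the b-type subunit of the stalk and was the most covered of the 5 genes in dPPRrbcL. Its coverage over exons and intron was 129.9 and 154 reads per nucleotide in WT, and 3412 and 3175 in dPPRrbcL, with no overlap. The level was 1.25% ± 0.34 (SD, n = 2) of the library mean for WT, against 26.5% ± 2.2 (SD, n = 2) for dPPRrbcL. The log2 change was 4.32 scaled to the library total (SE 0.21, limma adjusted p = 1.24e-06), rank 12 of 112. It was 1.38 relative to the median gene (SE 0.12, limma adjusted p = 0.000123). Both atpF and atpH rose relative to the median gene with each pseudocount, filter, block and left-out library tried, but the size moved with the pseudocount. For atpF it was 2.08 with 1%, 0.70 with 0.01% and 2.36 with median coverage. For atpH it was 1.82 and 0.65 with the same pseudocounts. Without a pseudocount, atpF stood 0.58 and atpH 0.53 above the median log2 ratio of 109 genes. Without a pseudocount atpF ranked 28 and atpH 31 of 109 genes.

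atpA, at 9938 to 11461 (ArthCp007, 1 exon, 1524 nt), codes for the alpha subunit of CF1 and was the most covered of the 5 genes in WT. Its coverage was 197 and 252 reads per nucleotide in WT, and 2014 and 1880 in dPPRrbcL, with no overlap. The level was 1.98% ± 0.64 (SD, n = 2) of the library mean for WT, against 15.6% ± 1.3 (SD, n = 2) for dPPRrbcL. The log2 change scaled to the library total was 2.95 (SE 0.23, limma adjusted p = 8.94e-06), rank 58 of 112. It was 0.01 relative to the median gene (SE 0.14, limma adjusted p = 0.970). This position depended on the pseudocount: the change relative to the median gene was 0.96 with 1% and -0.71 with 0.01%, both past the threshold. Without a pseudocount the ratio of group means was 7.91-fold for atpA, 14.6-fold for atpI, 20.4-fold for atpH and 21.2-fold for atpF, so atpA had the smallest ratio of the 5 genes.

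Ratios between genes of the same library need no scaling between libraries. atpA had 1.52 and 1.63 times the coverage of atpF in WT replicates 1 and 2, and 0.590 and 0.592 times in dPPRrbcL. The order of the pair was thus opposite in the groups. atpF made up 31.6% ± 1.1 (SD, n = 2) of the summed coverage of the 5 genes in WT and 51.2% ± 0.1 (SD, n = 2) in dPPRrbcL. atpA made up 59.6% ± 1.0 (SD, n = 2) in WT and 36.3% ± 0.1 (SD, n = 2) in dPPRrbcL. The shift was far larger than the spread within either group, but with 2 libraries against 2 the exact two-sided permutation test cannot give less than its value here, p = 0.33.

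Between neighbours further up the cluster, atpF had 1.45 and 1.44 times the coverage of atpH in dPPRrbcL, and 1.45 and 1.35 times in WT, and the groups overlapped. atpH had 3.43 and 3.58 times the coverage of atpI in WT, and 4.73 and 5.15 times in dPPRrbcL. atpI had 6.28 and 4.36 times the coverage of rps2 in WT, and 2.98 and 3.01 times in dPPRrbcL. Coverage therefore climbed from rps2 to atpF in both groups, and from atpF to atpA it went on climbing in WT and dropped in dPPRrbcL. Together the 5 genes made up 6.43% and 6.65% of the coverage of protein-coding genes in the WT libraries, and 7.24% and 7.34% in the dPPRrbcL libraries (exact permutation p = 0.33, the smallest possible). The difference was 0.746 percentage points. It was 2.97 points as a share of protein-coding genes other than rbcL, and 1.28 points with the spacers of the cluster included.

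**Figure D2:**
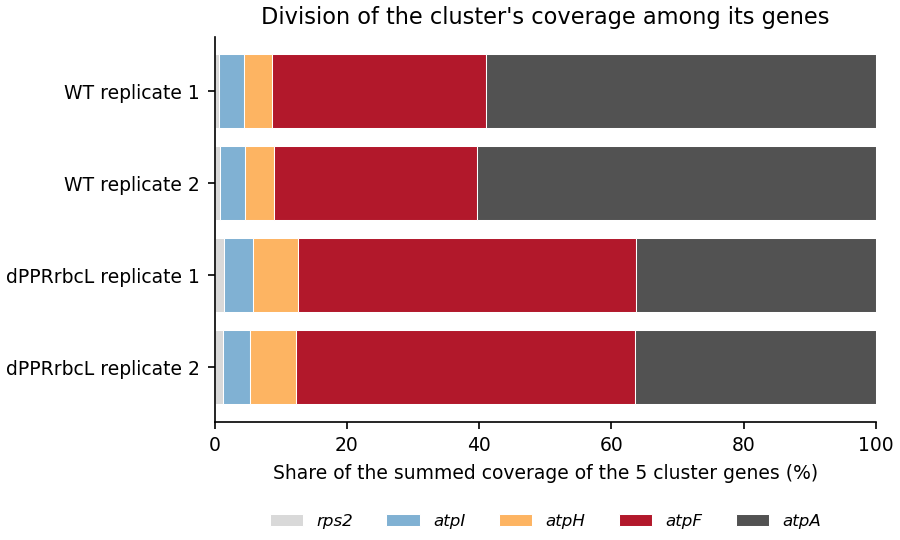
Share of the summed coverage of the 5 genes taken by each gene, in percent, one bar per library. atpF takes 51.2% on average in dPPRrbcL and 31.6% in WT, and atpA 36.3% and 59.6%.

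Within atpF both exons had larger changes of mean coverage than the intron. Exon 1 (12654 to 12798), which carries the start codon, had 292 and 384 reads per nucleotide in WT, and 9371 and 8982 in dPPRrbcL. Exon 2 (11529 to 11938), which carries most of the reading frame, had 53.7 and 72.2 in WT, and 3244 and 3108 in dPPRrbcL. The intron (11939 to 12653) had 141 and 155 in WT, and 2299 and 2036 in dPPRrbcL. In WT the intron was covered more than exon 2, and in dPPRrbcL less.

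The changes of exons, introns and spacers were tested over 264 segments of the genome, of which 98.5% rose when scaled to the library total. Of all segments, 31.4% rose and 39.8% fell relative to the median gene. Exon 2 had a log2 change of 5.32 scaled to the library total (SE 0.22, limma adjusted p = 5.76e-19), rank 6 of 264, and 2.37 relative to the median gene (limma adjusted p = 2.63e-06). Exon 1 followed with 4.62 (SE 0.23) and 1.67 (limma adjusted p = 2.66e-05), rank 14. The intron had 3.67 (SE 0.22) and 0.72 (limma adjusted p = 0.00106), rank 57. The intron's rise relative to the median gene was lost with a pseudocount of 0.01% (0.03, limma adjusted p = 0.810). With median in place of mean coverage, the intron stood above exon 1 (4.87 against 4.35 scaled to the library total). It stayed below exon 2 (6.10), so the order of intron and exon 1 depended on the measure. The median intron of the genome had a change of 2.39 scaled to the library total, and the median exon 2.96, so the intron of atpF lay above both.

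The ratio of intron to exon coverage in atpF was 1.21 and 1.01 in WT replicates 1 and 2, and 0.475 and 0.439 in dPPRrbcL (exact permutation p = 0.33, the smallest possible). At the exon 1 border printed above, the last 25 nt of the exon had 394 and 517 reads per nucleotide in WT and the first 25 nt of the intron 379 and 446. In dPPRrbcL the same places had 9357 and 8903 in the exon and 4229 and 3612 in the intron. The step across the border was 1.10-fold ± 0.08 (SD, n = 2) in WT against 2.34-fold ± 0.18 (SD, n = 2) in dPPRrbcL. At the exon 2 border the exon side exceeded the intron side 1.29-fold ± 0.04 (SD, n = 2) in WT against 2.18-fold ± 0.05 (SD, n = 2) in dPPRrbcL.

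The intron itself was uneven in WT. Split at its middle, the 5′ part had 240.3 and 271 reads per nucleotide in WT and the 3′ part 41.3 and 38.6. In dPPRrbcL the 5′ part had 2950 and 2552 and the 3′ part 1650 and 1522. The 5′ part thus held 6.43 ± 0.86 (SD, n = 2) times the coverage of the 3′ part in WT and 1.73 ± 0.08 (SD, n = 2) times in dPPRrbcL. The highest coverage in atpF lay in the intron in both WT libraries, at 12549 and 12579 (509 and 632 reads). In both dPPRrbcL libraries it lay in exon 1, at the same position, 12726 (11329 and 11085 reads).

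The same direction was seen in other genes. Among 14 intron-containing protein-coding intervals, 8 had a lower intron to exon ratio in both dPPRrbcL libraries than in either WT library (57.1%), 3 a higher one, and 3 overlapped. The median log2 ratio of dPPRrbcL over WT was -0.49, and atpF, at -1.28, was second to petB, for cytochrome b6 of the cytochrome b6f complex, at -1.44. The ndhB, rpl2 and rps12 genes appear there as a pair of copies in the inverted repeat and are not independent. A lower ratio was therefore no property of atpF alone, and its size in atpF was near that end of the range.

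**Figure D3:**
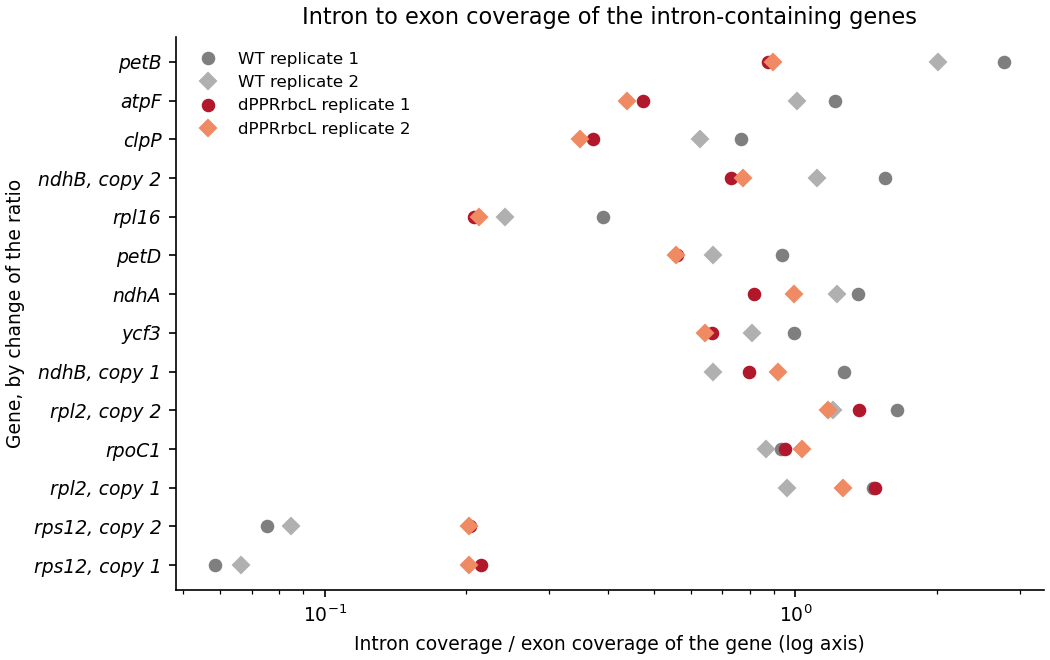
Ratio of intron to exon coverage (log axis) of the 14 intron-containing protein-coding intervals, one point per library, ordered by the log2 ratio of dPPRrbcL over WT. For atpF the dPPRrbcL points lie at 0.475 and 0.439 and the WT points at 1.21 and 1.01.

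The log2 changes of the spacers, scaled to the library total, ran from 3.01 to 5.28. The spacer between atpH and atpF (12799 to 13261) had 31.5 and 34.1 reads per nucleotide in WT, and 2012 and 1687 in dPPRrbcL. The log2 change was 5.28 scaled to the library total (SE 0.21, limma adjusted p = 3.56e-19), rank 7 of 264, and 2.33 relative to the median gene (limma adjusted p = 1.60e-06). Relative to the coverage of atpH, the spacer stood at 0.352 and 0.299 in WT, and at 0.857 and 0.764 in dPPRrbcL. On average the RNA between these reading frames was thus covered nearly as densely as atpH in dPPRrbcL and far less densely in WT. Coverage within the spacer was uneven. In dPPRrbcL the stretch at 12938 to 12987 had 808 and 626 reads per nucleotide, and that at 13188 to 13237 had 3407 and 3051.

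The spacer between rps2 and atpI (14771 to 15012) had 10.9 and 6.38 reads per nucleotide in WT, and 471 and 469 in dPPRrbcL. Its log2 change was 4.49 scaled to the library total (SE 0.21, limma adjusted p = 3.85e-18), rank 19, and 1.54 relative to the median gene (limma adjusted p = 6.83e-05). The WT coverage is below the pseudocount, and the spacer passed the filter only through dPPRrbcL, so these p-values are a description. The second value was 0.62 with a pseudocount of 1% and 1.805 with 0.01%. The spacer had 1.02 times ± 0.10 (SD, n = 2) the coverage of atpI in dPPRrbcL and 0.308 times ± 0.153 (SD, n = 2) in WT. The log2 change of this spacer was above that of rps2 and of atpI; the difference between segments was not itself tested.

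The spacer between atpI and atpH (13508 to 14020), where PPR10 binds in maize, had 33.2 and 30.3 reads per nucleotide in WT, and 542 and 439 in dPPRrbcL. Its log2 change was 3.42 scaled to the library total (SE 0.21, limma adjusted p = 1.99e-15) and 0.48 relative to the median gene (limma adjusted p = 0.0144). The second value was 0.37 without dPPRrbcL replicate 1 (limma adjusted p = 0.163) and 0.58 without replicate 2 (limma adjusted p = 0.0587), again with 1 library for the group. It was 0.07 with a pseudocount of 0.01% (limma adjusted p = 0.748). Its coverage stood at 0.319 times ± 0.075 (SD, n = 2) that of atpH in WT and 0.215 times ± 0.023 (SD, n = 2) in dPPRrbcL.

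The spacer between atpF and atpA (11462 to 11528), where BFA2 binds, is only 67 nt long. It had 321 and 537 reads per nucleotide in WT, and 3840 and 3557 in dPPRrbcL. The log2 change was 3.01 scaled to the library total (SE 0.25, limma adjusted p = 1.21e-12) and 0.06 relative to the median gene (limma adjusted p = 0.817). The second value was -0.30 without WT replicate 1 (adjusted p = 0.0407) and 0.43 without WT replicate 2 (adjusted p = 0.00863), so the choice of WT library decided its direction. The coverage of this spacer stood at 1.88 times ± 0.35 (SD, n = 2) that of atpA in WT and at 1.90 times ± 0.01 (SD, n = 2) in dPPRrbcL.

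Past the ends of the cluster, the stretch between atpA and the nearest gene beyond it, a trnR gene, had 5.13 and 0.946 reads per nucleotide in WT, and 356 and 258 in dPPRrbcL. Its log2 change was 4.36 scaled to the library total and 1.41 relative to the median gene (limma adjusted p = 0.000461). The WT coverage is below the pseudocount, and this stretch passed the filter only through dPPRrbcL. With a pseudocount of 1% the second value was 0.21 (limma adjusted p = 0.0640). This trnR gene, a tRNA gene for arginine, lies on the opposite strand and rose too, from 13.1 and 0 to 434 and 376 reads per nucleotide. Without strand in the files, reads past atpA and reads of the tRNA gene cannot be told apart. The spacer before rps2 had a log2 change of 3.01 scaled to the library total and 0.06 relative to the median gene (limma adjusted p = 0.686).

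Steps in coverage were located in each spacer by setting the mean of 25 nt on either side of every position against each other. In all 4 libraries the largest rise between atpH and atpF came directly before atpF, 9 and 10 nt before its start codon in WT and 6 and 10 nt before it in dPPRrbcL. Between atpI and atpH both dPPRrbcL libraries had their largest rise 10 nt before the start codon of atpH, and the WT libraries 85 and 105 nt before it. In dPPRrbcL replicate 1 coverage there went from 1067 to 1820 reads per nucleotide, and in replicate 2 from 964 to 1693. The stretches that hold these rises are Pt:12796-12825 before atpF and Pt:13505-13534 before atpH, with the start codon in capitals.
atpF start: tatagtttagctagaagaggagattatATG
atpH start: tctttattttggtgtgaggaacttatcATG

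In windows of 100 nt, all 57 windows of the cluster rose when scaled to the library total, where 95.7% of the 1372 windows tested in the genome did. Windows could pass the filter through dPPRrbcL alone, as the 6 inside rps2 did. Relative to the median gene 29 of the 57 rose and 0 fell, and at an unadjusted limma p under 0.05 there were 32 and 1. Over the genome 20.6% rose and 38.2% fell by this measure. Of the windows wholly inside a gene, 10 of 11 rose in atpF, 2 of 2 in atpH, 3 of 6 in atpI, 2 of 14 in atpA and 0 of 6 in rps2, where 1 rose at an unadjusted p under 0.05. With a pseudocount of 0.01% the count in the cluster was 19 and with 1% it was 45.

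The largest changes sat in atpF exon 2 and in the spacer before atpF. The window at 11801 to 11900, printed above, had 42.5 and 25.5 reads per nucleotide in WT, and 3565 and 3540 in dPPRrbcL. Its log2 change was 6.22 scaled to the library total (SE 0.25, limma adjusted p = 9.52e-33), rank 3 of the genome's 1372 windows, and 3.27 relative to the median gene. The window next to it, at 11701 to 11800, had 6.13 (rank 5). The window at 12801 to 12900 had 6.08 (rank 6) and that at 13001 to 13100 had 5.98 (rank 7), both in the spacer between atpH and atpF. The smallest change was in atpA, at 11001 to 11100, with 453 and 592 reads per nucleotide in WT, and 3355 and 3044 in dPPRrbcL, a log2 change of 2.49 (rank 821). The cluster thus held windows near the top of the genome and windows below its middle.

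**Figure D4:**
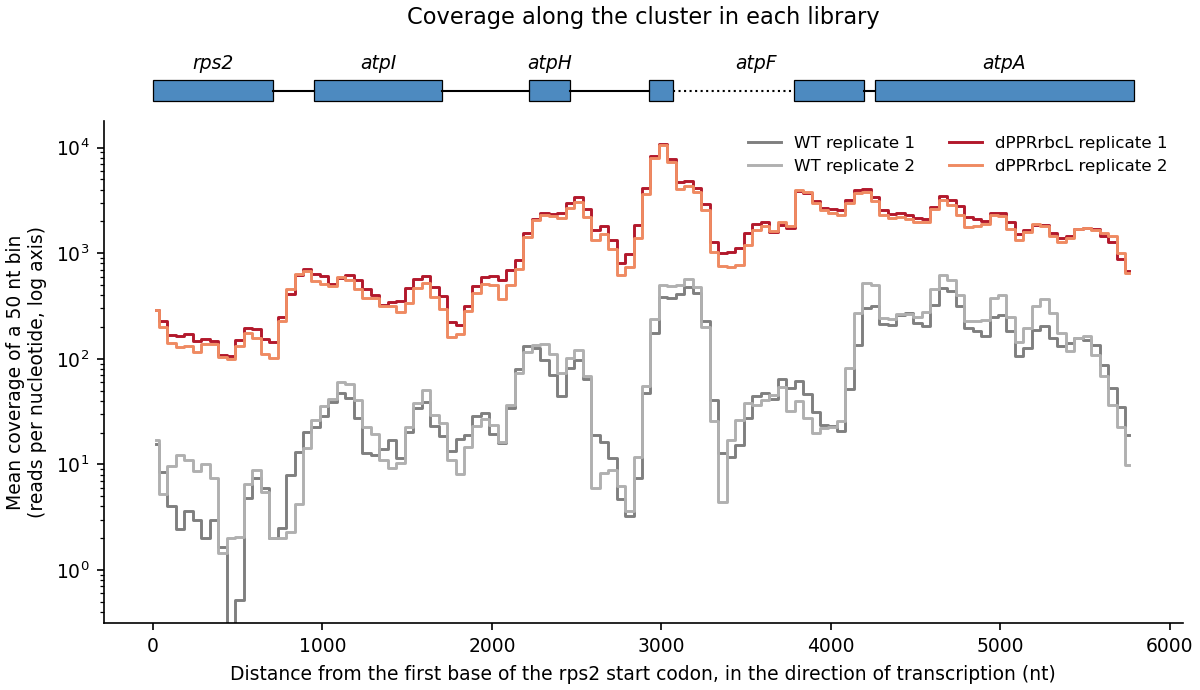
Mean coverage of 50 nt bins (reads per nucleotide, log axis; bins at 0 are not drawn) along the cluster, one line per library, against the distance from the rps2 start codon; boxes are exons, the dotted line the atpF intron and solid lines the spacers. WT coverage dips before atpF and over the 3′ part of the intron and exon 2, while both dPPRrbcL lines peak in atpF exon 1 and stay high over exon 2.

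Seen in 50 nt bins, the dPPRrbcL replicates followed each other closely along the cluster. Pearson's r of log2 coverage over the 116 bins was 0.996 between the dPPRrbcL replicates, 0.959 between the WT replicates, and 0.779 to 0.838 between libraries of different groups. Neighbouring bins share reads and differ in level for all libraries alike, so these values are a description. Among the 95 bins whose WT libraries averaged 10 reads per nucleotide or more, the log2 ratio of scaled coverage without a pseudocount reached 7.03 ± 0.52 in the spacer before atpF (13038 to 13087) and 6.81 in atpF exon 2. It was lowest in atpA, at 2.48 ± 0.52 (11038 to 11087). Over the 30 bins of atpA it had a median of 3.06 and rose to 5.46 in the last bin of the reading frame.

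**Figure D5:**
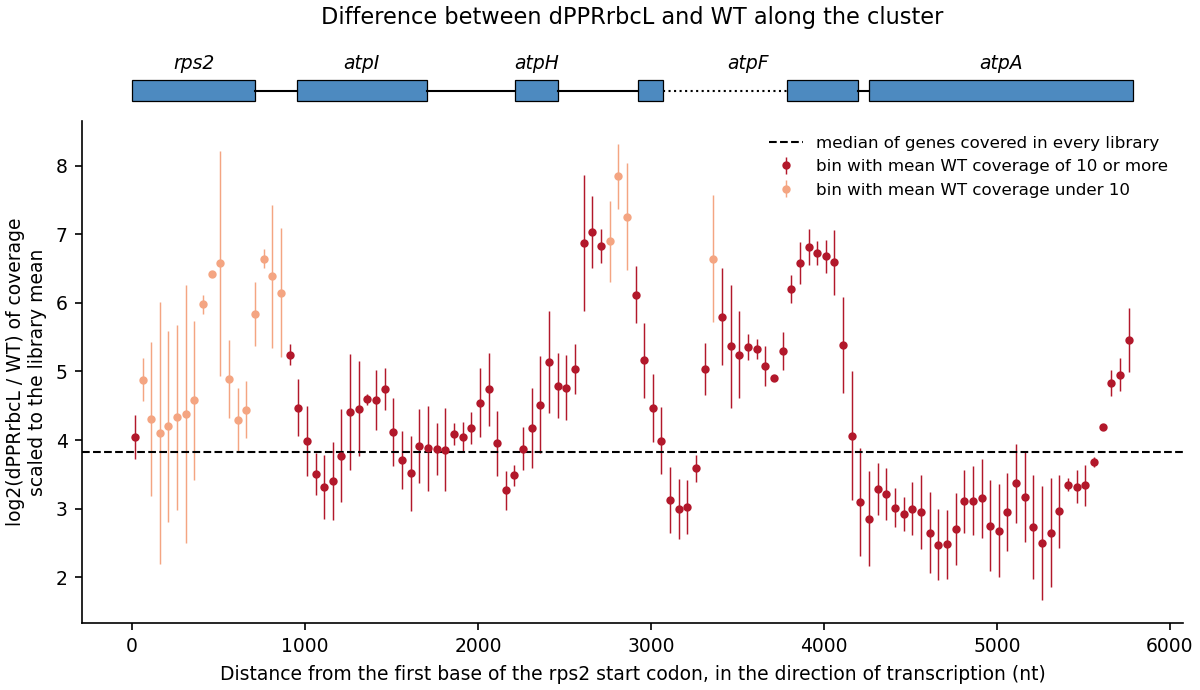
Log2 ratio of dPPRrbcL over WT in 50 nt bins along the cluster, without a pseudocount; error bars are the square root of the summed variances of log2 coverage within the groups (2 libraries each), and the dashed line is the median of 109 genes, 3.82. The values reach 7.03 in the spacer before atpF and 6.81 in atpF exon 2 among the darker points, fall toward the atpH end of that spacer and the 3′ end of exon 2, and lie below the dashed line for most bins of atpA.

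The profile of atpA differed between the groups at its end. The first 300 nt of the reading frame had 2.93 and 3.92 times the coverage of the last 300 nt in WT, and 1.85 and 1.64 times in dPPRrbcL. The groups did not overlap (exact permutation p = 0.33, the smallest possible). The highest coverage of atpA lay at 11045 and 11069 in the WT libraries and at 11068 in both dPPRrbcL libraries, so the crest of the gene was in nearly the same place.

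The other chloroplast genes of ATP synthase, atpB for the beta subunit and atpE for the epsilon subunit of CF1, lie elsewhere in the genome and overlap each other by a few bases. atpB had 222 and 261 reads per nucleotide in WT, and 2091 and 1984 in dPPRrbcL, and a log2 change of 2.92 scaled to the library total. The change relative to the median gene was -0.03 (limma adjusted p = 0.828), and was 0.95 with a pseudocount of 1% and -0.75 with 0.01%, both past the threshold. Its coverage was 1.04 and 1.06 times that of atpA in dPPRrbcL, and 1.13 and 1.04 times in WT, and these ranges overlapped. atpE had 86.7 and 72.2 in WT, and 1277 and 1286 in dPPRrbcL, with log2 changes of 3.73 and 0.78 (limma adjusted p = 0.00146). The second was 0.17 with a pseudocount of 0.01% (limma adjusted p = 0.418). The genes for the alpha and beta subunits thus had nearly equal coverage in each library.

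rpoC2, for the beta″ subunit of the plastid-encoded RNA polymerase, is the next gene upstream of rps2. It had 5.03 and 5.45 reads per nucleotide in WT, and 119 and 102 in dPPRrbcL, a level close to that of rps2. Like rps2, rpoC2 passed the filter only through dPPRrbcL. Its log2 change was 2.76 scaled to the library total and -0.19 relative to the median gene (limma adjusted p = 0.192). Of the 14 other rps intervals, 13 were tested and all of those rose when scaled to the library total. Of these, 3 rose and 5 fell relative to the median gene, around a median of 0.05. Over all genes 31.2% rose and 33.0% fell. Both inverted repeat copies of rps12 were among the 5 that fell (-0.71 and -0.78). Scaled to the library total the highest was rps18, at 4.36, and the lowest was the copy of rps12 at 139856, at 2.17, so rps2 at 3.15 lay inside their range. Copies of rps12 and rps7 in the inverted repeat share their sequence.

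rbcL, the stated target, had a log2 change of 4.88 scaled to the library total, rank 6 of 112, and 1.93 relative to the median gene. Without a pseudocount it ranked 14 of 109 genes, 1.06 above their median log2 ratio. Set against rbcL in the same library, atpF had 0.193 and 0.199 times its coverage in WT, and 0.1398 and 0.143 times in dPPRrbcL. atpA had 0.292 and 0.324 times in WT, and 0.0826 and 0.0847 times in dPPRrbcL. The ratio to rbcL was lower in dPPRrbcL for atpI, atpH, atpF and atpA, and overlapped between the groups for rps2. Thus 4 of the 5 genes were recovered less than rbcL, each against its own WT level. The protein-coding genes whose levels over the 4 libraries lay nearest to the mean of the 5 were rpl33, petD and psbK, at Euclidean distances of 0.313, 0.412 and 0.416 on the log2 scale.

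The 150 nt before the rbcL start codon were searched for exact runs shared with the RNA strand of each window of the cluster. The longest runs were of 9 nt and occurred in 6 of the 57 windows (10.5%). Over both strands of all windows of the genome 11.8% shared a run of 9 nt or more, so the cluster lay near the background. The windows with these runs ranked from 6 to 533 of 1372 by their change. TAATTTATG in atpA, at 10601 to 10700, ranked 533. TTTTGTGAA between atpI and atpH, at 13801 to 13900, ranked 304. TAGGGAGGG between rps2 and atpI, at 14901 to 15000, ranked 97. GAAAGATTC and AAGAATTCT in the atpF intron, at 12001 to 12100 and at 12201 to 12300, ranked 49 and 41. AAAGAATAA before atpF, at 12801 to 12900, ranked 6. The exon 2 window with the largest change in the cluster shares no more than 7 nt, AAATTCA, which 72.3% of windows match or exceed.

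The pairs of stretches for the highest and the lowest ranked of these windows, and the rbcL partner of the exon 2 run, are shown with the shared run in capitals. The spacer before atpF is Pt:12840-12869 and atpA is Pt:10667-10696, both on the minus strand. The rbcL stretches are Pt:54808-54837, Pt:54872-54901 and Pt:54921-54950 on the plus strand. A shared run is a description of the letters and no binding site.
before atpF: ttttcaataaAAAGAATAAaaaaaaaagga
rbcL, run shared with the stretch before atpF: taatAAAGAATAAttctgattagttgataa
atpA: cacactttaaTAATTTATGatgatctttcc
rbcL, run shared with atpA: aatctattccTAATTTATGtcgagtagacc
rbcL, run shared with atpF exon 2: caagaattctAAATTCAtgacttgtaggga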

How the data were processed

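For each library the authors deposited the coverage of every chloroplast position as whole numbers, called reads per nucleotide in the file headers; the values add up to no fixed total. This coverage is a signal, not a count of independent reads. The mapper, its settings, the genome build and the use of strand are not given in the sources used here; the number of positions equals the length of the TAIR10.1 chloroplast, whose RefSeq annotation and sequence were used with 1-based coordinates. Depth in reads is unknown, so no counting interval was computed, and the number of libraries limits the precision.

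Mean coverage of genes (introns included), of exons, introns and spacers of at least 30 nt, and of 100 nt windows was divided by the library mean. After adding 0.001, log2 values with a mean coverage of at least 10 were tested with limma 3.58.1 in R 4.3.3, dPPRrbcL against WT without covariates. Benjamini-Hochberg adjustment ran over all features at 0.05. limma pools the variance in part over the features tested together, so the size of its p-values depends on that set. The same log2 change of atpA, 2.95, had limma adjusted p = 8.94e-06 among genes and 1.77e-13 among segments. For the window at 11801 to 11900, limma adjusted p was 9.52e-33 with the coverage filter and 5.92e-05 without it. Every log2 change includes the pseudocount unless stated, which understates the change of low genes. Ratios within a library were compared with exact two-sided permutation tests (scipy 1.17.1). Python 3.11.15, numpy 2.4.6, pandas 2.3.3 and matplotlib 3.10.9 were used.

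The members, lists and tests were chosen with earlier results of these data known. Named were the 5 genes, their spacers, the atpF exons and intron, atpB, atpE, both neighbours, rbcL, the highest and lowest other rps gene, the 3 nearest protein-coding genes, and the windows of largest and smallest change. The windows ranked 5 to 7, petB and the steps were named after their values were seen, and the other windows for their shared runs. Median-ratio scaling and its combinations, the comparison without a pseudocount and the crossed pairing were added after seeing the data. Replicates differed at most positions of the cluster (equal at 0.363% in dPPRrbcL and 5.58% in WT), so each counts as 1 library.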

Additional observations from a re-analysis of the deposited data

How the results depend on the processing

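Scaled to the library total, 109 genes rose, and the scaling decided this count: 26 with scaling to the median gene, 38 with scaling to coverage outside rRNA and tRNA genes and 35 with the median ratio. In the same order 58, 32 and 37 genes fell (0 scaled to the total, also at an unadjusted limma p under 0.05; 3 with an intensity trend, 1 with the crossed pairing, 0 to 1 with 1 library left out). Segments that rose numbered 54, 92 and 83 against 260, and cluster windows 21, 34 and 29 against 57. Windows of 50 and 200 nt gave 115 and 28 risers scaled to the total and 56 and 15 relative to the median gene, where the number of windows itself changes. Relative to the median gene the cluster windows that rose numbered 45 with a pseudocount of 1% and 19 with 0.01%, and those that fell 8 and 6, 2 with a minimum coverage of 100, 1 with an intensity trend, 1 with median coverage and 0 to 3 with 1 library left out. Genes that fell numbered 21 with a minimum coverage of 100. The highest 50 nt bin ranged from 6.87 to 7.70 with 1 library left out. Its start moved from 13038 to 13088 without WT replicate 1, and to 11638, in atpF exon 2, without WT replicate 2. The signs of several changes turned. With scaling to the median gene they were -0.17 for rps2, -0.37 for atpA, -0.41 for atpB, -0.57 for rpoC2, -0.32 for the atpF to atpA spacer, -0.31 for the spacer before rps2 and -0.83 for the atpA window at 11001. With scaling to coverage outside rRNA and tRNA genes rpoC2 had -0.057 and that window -0.32, and with the median ratio atpB had -0.032, rpoC2 -0.19 and the window -0.46. Relative to the median gene, a pseudocount of 1% gave rps2 -0.45, atpB 0.95, the spacer before rps2 -0.30 and the window 0.74. One of 0.01% gave atpA -0.71, rpoC2 0.29 and the atpF to atpA spacer -0.68. No pseudocount gave atpA -0.84 against the median log2 ratio of genes. Median coverage gave rps2 -0.013, atpA -0.055, atpB 0.11 and the spacers -0.083 and -0.11. A minimum of 100 gave atpA -0.19 and the spacers -0.14 and -0.13, and no filter gave atpB 0.089. With 1 library left out the range was -0.16 to 0.18 for atpA, -0.15 to 0.083 for atpB, -0.30 to 0.43 for the atpF to atpA spacer and -0.013 to 0.14 for the spacer before rps2. The cause was not tested. The share of the cluster (difference 0.636 to 2.97 points) and the atpF intron to exon ratio kept their direction under each alternative. Same-numbered replicates did not deviate together (correlation -0.40 over genes, -0.14 over segments and -0.12 over windows). With 2 libraries per group this cannot show whether the numbers mark a pairing, and the main test used none. The replicate block left 105 genes higher and 57 cluster windows, and the crossed pairing 109 genes.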
